A study of Mus musculus with 95 samples.

Results

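The 10 genes Gfap, Aqp4, Slc1a2, Slc1a3, S100b, Aldh1l1, Acsbg1, Gja1, Glul and Aldoc are widely used to mark astrocytes. They were taken by symbol from a table of raw read counts with 55401 gene rows, in which each of the 10 symbols stands on 1 row. Their levels were followed in mouse cortex and, for contrast, in kidney, liver and white adipose tissue (WAT).

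Astrocytes are the glial cells that tile the brain. They clear glutamate released at synapses and turn it into glutamine, take up potassium and water at the endfeet that wrap blood vessels, and supply neurons with metabolic substrates. They are joined by gap junctions, and they raise filament and immune genes in the state called reactive. Several of the 10 genes also work outside the brain: glutamine synthetase and the folate enzyme Aldh1l1, for example, are known from liver.

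Polyadenylated RNA was sequenced in bulk from C57BL/6J mice, an inbred laboratory strain. The group labelled Stim, read here as the torpor-like state (TLS) of the study's title, and the control group (Con) were followed for 3 months and were 205 days old. The time-0 group (T0) was taken at the start and was 122 days old, so that control against T0 compares animals that differ by 3 months of age and housing. In every tissue a group had 4 F and 4 M animals by label, except that WAT had 7 control libraries, 3 of them M. The animals were perfused with saline before the tissues were frozen, and the animal was the unit of replication. The labels do not say how the state was induced. No transgene or deletion is named for any group. In bulk tissue, a change in the number of astrocytes and a change in RNA per astrocyte cannot be told apart.

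The 24 cortex libraries held 14299369 to 22962145 counts each, with a median of 19071668. WAT libraries held 15881766 to 29089492 counts, kidney libraries 8217875 to 28337864 and liver libraries 4031533 to 29269511. All 95 libraries fitted their F or M label, and no pair of libraries held identical values. The libraries carry serial numbers, which ran from 50 to 96 for TLS, from 98 to 144 for control and from 53 to 145 for T0. If these numbers follow the order of preparation, that order cannot be told apart from TLS against control. Markers of the other cell types of brain were all detected in cortex, none of them at 0 in every library.

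The genes differed widely in how far they set cortex apart. Levels are given as CPM, the read count of a gene scaled to a common library size. In the T0 animals, Gfap, the intermediate filament of astrocytes, had a cortex median of 226 CPM and at most 0.256 CPM in the medians of kidney, liver and WAT. Acsbg1, an acyl-CoA synthetase for long fatty acids, was at 139 CPM in cortex, with medians of 1.08 CPM in WAT, 0.673 in kidney and 0.141 in liver. The calcium-binding protein S100b had a median of 112 CPM in cortex, 5.36 in WAT and 0.345 in kidney, and its median in liver was 0. Aldoc, the brain form of the glycolytic enzyme aldolase, had 766 CPM in cortex against 17.8 in kidney, 8.43 in liver and 0.826 in WAT. All 4 had their highest median in cortex.

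Of the other 6 genes, Slc1a2, Slc1a3, Gja1, Aqp4 and Glul also had their highest T0 median in cortex, and Aldh1l1 did not. For Gja1 and Glul the lead over WAT was small, at 1.06-fold and 1.05-fold. Libraries were scaled within each tissue, so so small a lead does not settle the order. Slc1a2, the main glutamate transporter of the forebrain, had a median of 1707 CPM in cortex and 94.3 CPM in liver, but 3.95 in kidney and 0.383 in WAT. The second glial glutamate transporter, Slc1a3, had 395 CPM in cortex and 225 CPM in WAT, but 2.24 in kidney and 0.118 in liver. Gja1, which encodes the gap junction protein connexin 43, was at 117 CPM in cortex and 109.6 CPM in WAT. The water channel Aqp4 had 67.8 CPM in cortex, 20.4 CPM in kidney and 0.991 CPM in liver, and its median in WAT was 0. Glul, glutamine synthetase, was high everywhere, with medians of 1518 CPM in cortex, 1445 in WAT, 922 in kidney and 681 in liver. Aldh1l1, 10-formyltetrahydrofolate dehydrogenase, was lowest in cortex, at 75.0 CPM, against 1139 CPM in liver, 838 in kidney and 233 in WAT. Together the 10 genes took 0.480% to 0.754% of all counts of a cortex library. The range was 0.129% to 0.635% for WAT, 0.111% to 0.377% for liver and 0.111% to 0.219% for kidney.

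Per kilobase (kb) of exon, the order in cortex was led by Glul, with a median of 523 CPM per kb over the 24 libraries. The length is that of the exons of all annotated transcripts of a gene merged, 10257 bases for Gja1, so the order depends on the annotation. Aldoc followed with 299.8 CPM per kb, Slc1a2 with 153 and S100b with 101, and each of Glul, Aldoc and Slc1a2 exceeded the next gene of this order in all 24 libraries. S100b exceeded Gfap (63.3 CPM per kb) in 22 libraries, and Gfap exceeded Slc1a3 (56.2 CPM per kb) in 21. Acsbg1 had 46.1, Aldh1l1 17.3, Aqp4 13.5 and Gja1 12.2 CPM per kb. Aqp4 and Gja1 could not be ordered, since Aqp4 was the higher in 13 of the 24 libraries.

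Within their gene families in cortex, several of the 10 were the leading member on the same per-kb scale. Slc1a2 made up 63.3% and Slc1a3 23.3% of the summed level of the Slc1a family. That family holds glutamate transporters and the neutral amino acid transporters Slc1a4 and Slc1a5. Aqp4 made up 77.6% of the summed level of the aquaporins. S100b held 39.5% of the S100 family. Gja1 held 18.2% of the connexins, behind Gjb6, the connexin 30 that astrocytes also use. Without division by length Gja1 was the higher of these, with medians of 125 CPM against 52.8 CPM for Gjb6. Gfap held 15.8% of the intermediate filament genes, behind Nefl of neurons. Aldolases were compared without division by length, and Aldoc had a median of 978 CPM, against 1809 CPM for Aldoa. In liver, Slc1a2 again led its family with 79.4%, whereas Slc1a1 was the highest Slc1a gene in kidney and Slc1a5 in WAT.

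The genes lie apart in the mouse genome (GRCm38, GENCODE vM21). Gfap is at chr11:102887336-102900912 and Aldoc at chr11:78322968-78327781, Slc1a2 at chr2:102658659-102790784 and Slc1a3 at chr15:8634124-8710764. S100b is at chr10:76253853-76261159 and Gja1 at chr10:56377330-56402513, Aldh1l1 at chr6:90486427-90600203, Acsbg1 at chr9:54604877-54661870 and Glul at chr1:153899944-153909723. Exons of Slc1a2, Aldh1l1 and Glul overlap exons of other annotated genes (Gm13872, Gm45901 and Gm15756, Teddm2 and Mir8114), and whether the counting used strand is not given, so reads of these 3 genes and their partners may not be separated.

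Promoters are shown for the 6 genes on which the cortex comparisons below turn. The sequences are the 250 bases before the start of a RefSeq transcript in GRCm38.p6, written 5′ to 3′ on the strand of the gene. Slc1a2, Slc1a3 and Acsbg1 passed the test for TLS against control. Gfap, S100b and Aldoc passed for control against T0. Capitals mark 4 motifs on either strand: the STAT motif TTCNNNGAA, the NFI core TTGGC, the TATA motif TATAAA and the GC box GGGCGG. The windows are chr2:102706188-102706437 on the plus strand for Slc1a2, chr15:8710808-8711057 on the minus strand for Slc1a3 and chr9:54661886-54662135 on the minus strand for Acsbg1. For Gfap the window is chr11:102897201-102897450 on the minus strand, for S100b chr10:76253586-76253835 on the plus strand and for Aldoc chr11:78322823-78323072 on the plus strand. The Slc1a2 and Gfap windows lie inside the annotated genes, before an internal start. The Aldoc window lies partly inside its gene, since it runs past the annotated gene start at 78322968.
Slc1a2: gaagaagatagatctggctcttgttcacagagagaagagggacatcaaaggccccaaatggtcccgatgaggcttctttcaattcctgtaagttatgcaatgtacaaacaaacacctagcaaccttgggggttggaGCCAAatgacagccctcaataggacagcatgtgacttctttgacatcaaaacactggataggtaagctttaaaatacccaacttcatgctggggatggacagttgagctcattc
Slc1a3: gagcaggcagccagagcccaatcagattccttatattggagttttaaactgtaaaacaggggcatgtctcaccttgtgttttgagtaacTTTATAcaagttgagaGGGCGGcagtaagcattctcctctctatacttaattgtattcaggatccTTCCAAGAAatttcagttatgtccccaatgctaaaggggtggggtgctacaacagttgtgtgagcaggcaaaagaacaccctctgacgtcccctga
Acsbg1: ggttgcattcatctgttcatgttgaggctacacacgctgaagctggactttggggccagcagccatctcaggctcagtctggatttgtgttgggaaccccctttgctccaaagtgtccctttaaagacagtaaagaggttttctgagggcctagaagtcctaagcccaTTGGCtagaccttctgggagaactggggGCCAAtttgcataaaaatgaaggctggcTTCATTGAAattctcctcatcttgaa
Gfap: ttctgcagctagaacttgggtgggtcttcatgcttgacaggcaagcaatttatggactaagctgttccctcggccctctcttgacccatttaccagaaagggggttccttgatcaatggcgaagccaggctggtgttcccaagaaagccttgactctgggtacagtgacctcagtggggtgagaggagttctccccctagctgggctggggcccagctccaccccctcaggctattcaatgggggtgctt
S100b: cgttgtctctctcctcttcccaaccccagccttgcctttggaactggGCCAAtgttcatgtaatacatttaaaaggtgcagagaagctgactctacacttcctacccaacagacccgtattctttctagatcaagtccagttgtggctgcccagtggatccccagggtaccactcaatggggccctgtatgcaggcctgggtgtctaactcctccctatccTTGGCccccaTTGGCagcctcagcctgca
Aldoc: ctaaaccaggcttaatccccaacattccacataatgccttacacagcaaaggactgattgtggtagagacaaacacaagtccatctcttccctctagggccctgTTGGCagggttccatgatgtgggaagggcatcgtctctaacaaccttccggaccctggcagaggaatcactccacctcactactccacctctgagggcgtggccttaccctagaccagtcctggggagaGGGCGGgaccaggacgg

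The STAT motif, bound by factors that act downstream of cytokine receptors, was found in the windows of Slc1a3 and Acsbg1 and in a second Aldoc promoter. That is 3 of the 10 promoters searched, which belong to 9 members, and 7.02% of all 32851 promoters in the RefSeq table hold it. The NFI core, from the sites of a factor family of glial development, was found in 5 of the 10, including S100b, Slc1a2, Acsbg1 and Aldoc, against 41.5% of all promoters. A GC box was found in 4 of the 10, among them Slc1a3 and Aldoc, against 32.7%. A TATA motif stood in the Slc1a3 window alone, against 12.4% of all promoters, and none of these 4 motifs was in the Gfap window. Of the 5 other motifs searched on both strands, the AP-1 motif TGANTCA was found in Gja1 (6.75% of all promoters). The SOX motif ACAATG (10.7%), the E-box CACGTG (6.02%), the full NFI site (0.0365%), which contains the core on each strand, and the glucocorticoid receptor motif (0.387%) were found in none of the 10. A match is a string of letters and not a measured binding site.

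In cortex the control animals, 3 months older than T0, had higher levels of several of the genes. In control against T0, 5 of the 10 rose and none fell: Gfap, S100b, Aldoc, Slc1a3 and Glul. Of all 16609 genes tested in cortex, 21.2% passed in this comparison, 10.8% as higher. The median log2 fold change of the 10 genes was 0.18, against a median of -0.0016 over all genes. With TLS against control, 3 of the 10 rose and none fell: Slc1a2, Slc1a3 and Acsbg1. Here 5.41% of all genes passed, 2.99% as higher, and the median log2 fold change was 0.18 for the 10 genes and 0.0022 for all genes. TLS against T0, in which treatment and age differ together, gave 8 rises and no fall, with Aqp4 and Aldh1l1 as the genes that did not pass. In that comparison 35.7% of all genes passed, 18.1% as higher. The 3 comparisons share groups, so their values are given side by side and are not independent.

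**Figure D1:**
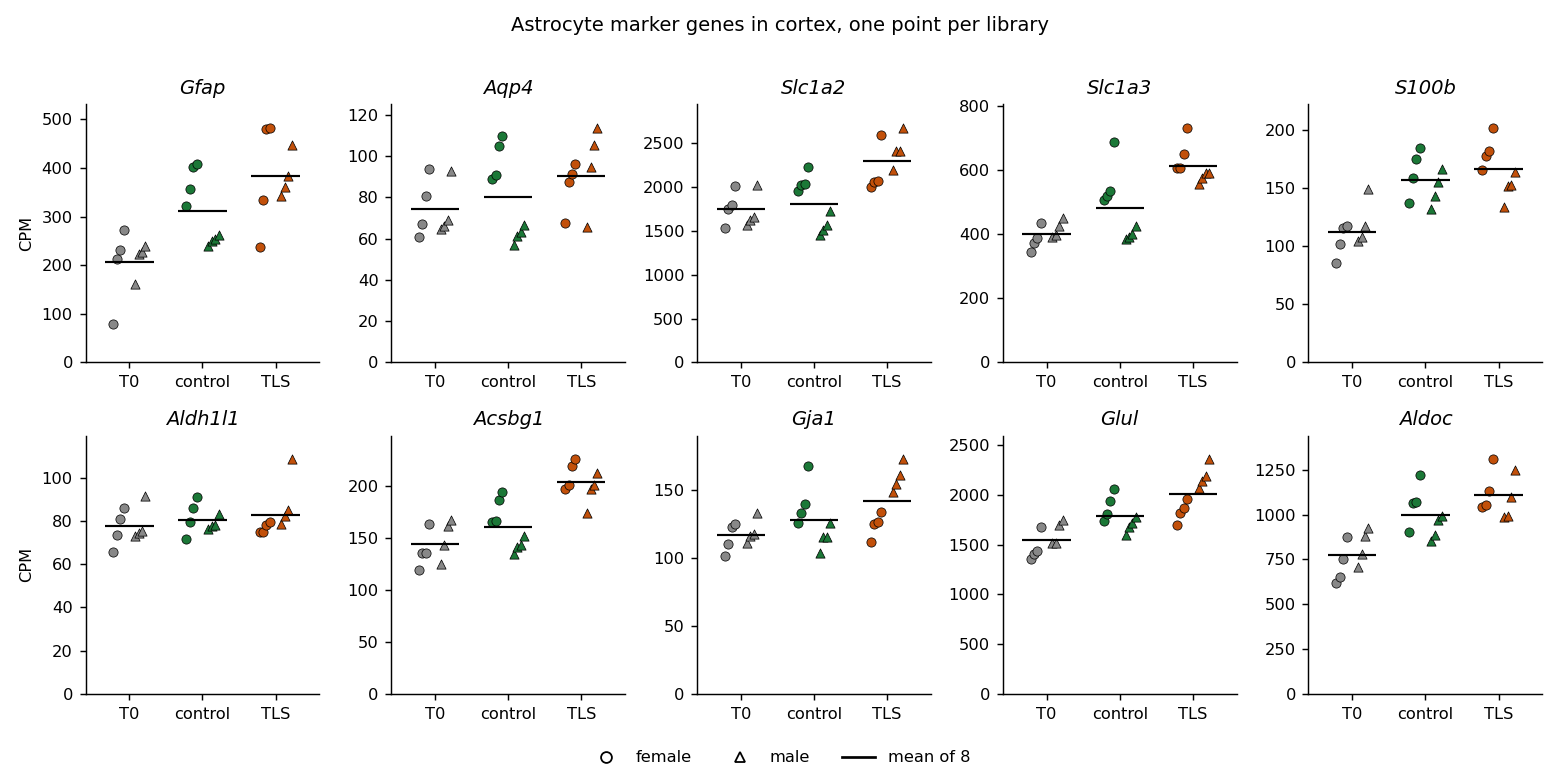
Level of each of the 10 genes in the 24 cortex libraries, in CPM, with 1 point per animal in the T0, control and TLS groups and F and M as separate markers. Slc1a3 runs from 345 to 451 CPM in T0 and from 558 to 732 CPM in TLS, and Aldh1l1 overlaps across all 3 groups.

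The glutamate transporters take up glutamate from the synaptic cleft. Slc1a2 ranged in T0 from 1528 to 2019 CPM with a median of 1707, and in control from 1458 to 2223 with a median of 1840.5. In TLS it ranged from 1995 to 2674 CPM with a median of 2305. TLS overlapped the upper part of the control range, and 7 of 8 TLS animals exceeded the mean of the controls of their own sex. The log2 fold change was 0.35 ± 0.0836 (SE, n = 8 per group) for TLS against control (adjusted p = 0.0157), 0.05 ± 0.0834 for control against T0 (adjusted p = 0.718) and 0.40 ± 0.0834 for TLS against T0 (adjusted p = 0.000471). Slc1a2 was thus called only in the 2 comparisons that include TLS. The control range was the wider and held the whole T0 range, with the F controls above the M controls, as given below.

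Slc1a3 ranged from 345 to 451 CPM in T0 with a median of 395, from 386 to 687 CPM in control with a median of 467, and from 558 to 732 CPM in TLS with a median of 599. Every TLS library lay above every T0 library, and all 8 TLS animals exceeded the mean of the controls of their sex, although 1 control animal, at 687 CPM, was higher than 7 of them. Its log2 fold change was 0.36 ± 0.0825 for TLS against control (adjusted p = 0.0136), 0.25 ± 0.0828 for control against T0 (adjusted p = 0.0314) and 0.61 ± 0.0827 for TLS against T0 (adjusted p = 4.75e-06). The control rise over T0 rested on the females: the F controls had 508, 519.9, 536 and 687 CPM against 345, 371, 387 and 433 in F of T0, whereas the M controls had 386, 392, 401 and 427 CPM against 392, 397, 427 and 451. The difference between the sexes in this change was -0.60 ± 0.121 in log2 (M minus F, adjusted p = 0.00701), in a comparison in which 3.26% of all genes passed, 0.759% with a lower value in M, and which was added after the data were seen. Slc1a3 was the 1 member that passed it. The rise in control against T0 lost its call without any 1 of T0 animals 1, 2 and 3 or controls A123 and 9916, with adjusted p between 0.0588 and 0.0935.

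Glul makes glutamine from the glutamate taken up. It ranged from 1351 to 1743 CPM in T0 with a median of 1518, from 1595 to 2059.7 CPM in control with a median of 1757, and from 1698 to 2356 CPM in TLS with a median of 2012. All neighbouring groups overlapped, and 7 of 8 control animals lay above the T0 mean of their sex. The log2 fold change was 0.22 ± 0.0659 for control against T0 (adjusted p = 0.0186), 0.16 ± 0.0659 for TLS against control (adjusted p = 0.137) and 0.38 ± 0.0659 for TLS against T0 (adjusted p = 6.77e-05). Without control D215 the control rise missed the threshold (adjusted p = 0.0524) and the TLS difference passed it (adjusted p = 0.0498).

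Aqp4 carries water across the endfoot membrane, and Gja1 couples neighbouring astrocytes. Aqp4 ranged from 60.7 to 93.8 CPM in T0, from 56.7 to 109.9 CPM in control and from 65.8 to 114 CPM in TLS, with medians of 67.8, 77.7 and 93.2. The 3 ranges overlapped widely, and Aqp4 passed none of the 3 comparisons, with log2 fold changes of 0.09 ± 0.141 for control against T0 (adjusted p = 0.681), 0.20 ± 0.141 for TLS against control (adjusted p = 0.435) and 0.29 ± 0.140 for TLS against T0 (adjusted p = 0.111). Gja1 ranged from 101 to 133 CPM in T0, from 104 to 167 CPM in control and from 112 to 172 CPM in TLS, with medians of 117, 126 and 141. It passed for TLS against T0 with a log2 fold change of 0.27 ± 0.0873 (adjusted p = 0.0162) and not for TLS against control (0.14 ± 0.0875, adjusted p = 0.365) or control against T0 (0.13 ± 0.0874, adjusted p = 0.288). For both genes 4 of 8 TLS animals exceeded their sex's control mean, and the sexes are given apart below.

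Gfap builds the filaments of astrocytes and is the classic gene of reactive ones. It ranged from 78.1 to 272 CPM in T0 with a median of 226, from 239.7 to 408 CPM in control with a median of 292, and from 237 to 482 CPM in TLS with a median of 371. All 8 control animals lay above the T0 mean of their sex, and the lowest T0 library, an F animal at 78.1 CPM, stood well below the next at 161 CPM. The log2 fold change was 0.58 ± 0.198 for control against T0 (adjusted p = 0.0398) and 0.90 ± 0.198 for TLS against T0 (adjusted p = 0.00146). Without that lowest library the control rise was 0.44 (adjusted p = 0.0338), but the call was lost without any 1 of T0 animals 2, 3 and 5 or controls 983B, A123, D215 and 9916, with adjusted p between 0.0516 and 0.0785. TLS against control gave 0.31 ± 0.197 (adjusted p = 0.366), with 6 of 8 TLS animals above their sex's control mean. Gfap had the widest spread of the 10 genes in this tissue, from 78.1 to 482 CPM.

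S100b, a calcium-binding protein that is also released by astrocytes, ranged from 85.1 to 149.5 CPM in T0 with a median of 112, from 132 to 185 CPM in control with a median of 157, and from 134 to 202 CPM in TLS with a median of 164. Of the T0 libraries, the highest, an M animal at 149.5 CPM, was the one that reached into the control and TLS ranges. The log2 fold change was 0.47 ± 0.0904 for control against T0 (adjusted p = 0.00072), with 8 of 8 animals above the T0 mean of their sex, and 0.56 ± 0.0905 for TLS against T0 (adjusted p = 3.83e-05). TLS against control was 0.08 ± 0.0898 (adjusted p = 0.629), and the control and TLS ranges lay over each other.

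Aldoc, Acsbg1 and Aldh1l1 belong to the metabolism of astrocytes. Aldoc ranged from 617 to 925 CPM in T0 with a median of 766, from 851 to 1224 CPM in control with a median of 982, and from 986 to 1308 CPM in TLS with a median of 1076. TLS and T0 did not overlap, and 3 T0 libraries, at 876, 879.7 and 925 CPM, reached the control range. Its log2 fold change was 0.36 ± 0.0846 for control against T0 (adjusted p = 0.00354, 8 of 8 animals higher than the T0 mean of their sex), 0.52 ± 0.0847 for TLS against T0 (adjusted p = 4.02e-05) and 0.15 ± 0.0844 for TLS against control (adjusted p = 0.284).

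Acsbg1 ranged from 119 to 167 CPM in T0 with a median of 139, from 135 to 194 CPM in control with a median of 159, and from 174 to 226 CPM in TLS with a median of 201. TLS and T0 did not overlap, all 8 TLS animals exceeded their sex's control mean, and 2 F controls, at 186 and 194 CPM, reached the TLS range. The log2 fold change was 0.35 ± 0.0755 for TLS against control (adjusted p = 0.0113), 0.15 ± 0.0757 for control against T0 (adjusted p = 0.161) and 0.50 ± 0.0756 for TLS against T0 (adjusted p = 1.71e-05). Aldh1l1 passed nowhere in cortex: it had medians of 75.0 CPM in T0 and 78.9 CPM in both control and TLS, and the ranges, 65.7 to 91.6, 71.8 to 91.1 and 74.8 to 108 CPM, lay over each other. The log2 fold change was 0.03 ± 0.0712 for TLS against control (adjusted p = 0.813) and 0.05 ± 0.0713 for control against T0 (adjusted p = 0.627). The highest TLS value of Aldh1l1, 108 CPM, stood apart from the next at 84.9 CPM.

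**Figure D2:**
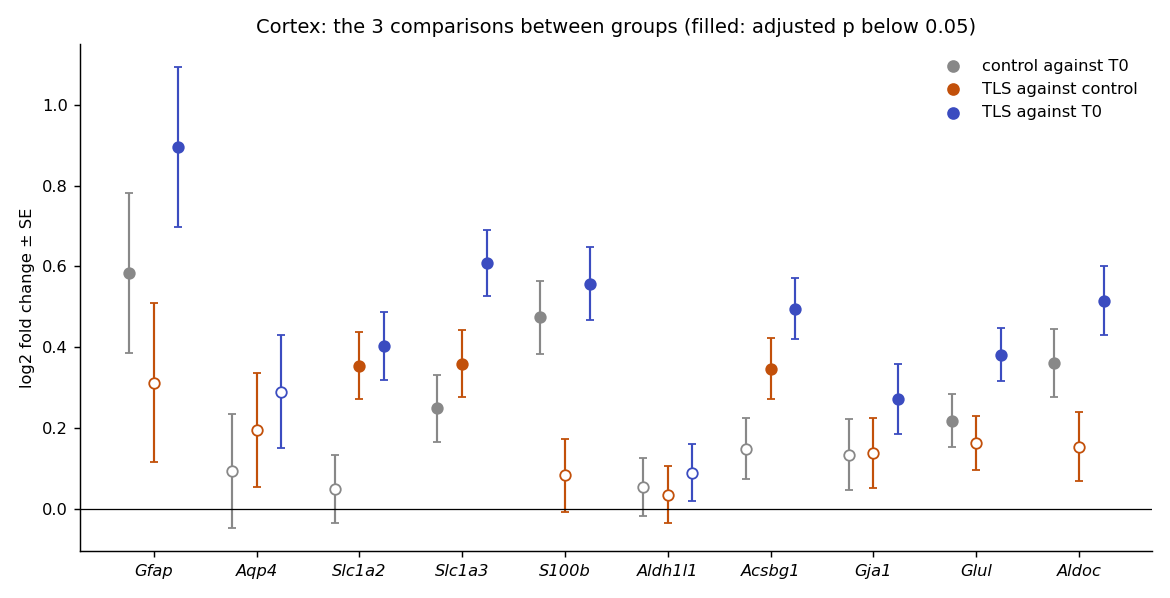
Log2 fold change of each of the 10 genes in cortex for control against T0, TLS against control and TLS against T0, with bars of 1 SE and filled points for an adjusted p below 0.05. Gfap, S100b and Aldoc have their larger step between T0 and control (0.58, 0.47 and 0.36), and Slc1a2 and Acsbg1 between control and TLS (0.35 and 0.35).

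The TLS difference was not the same in F and M animals. A fit with sex crossed with treatment tested the difference directly, and 4 of the 10 genes passed, all with the larger difference in M: Gja1, Slc1a2, Glul and Aqp4. Of all 16609 genes, 5.08% passed this test, 2.37% with a higher value in M. Within the M animals 6 of the 10 rose with TLS (Slc1a2, Slc1a3, Acsbg1, Gja1, Glul and Aqp4), while 16.6% of all genes passed, 7.65% as higher. Within the F animals none of the 10 passed, and 0.433% of all genes did. At an unadjusted p below 0.05 there were 3 of the 10 in F and 12.1% of all genes.

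Gja1 had 126, 133, 139 and 167 CPM in the F controls and 112, 125, 126 and 133.5 CPM in F with TLS. In the M animals it had 104, 115.0, 115.2 and 126 CPM in control and 148, 154, 161 and 172 CPM with TLS. The M groups did not overlap and TLS was the higher, whereas the F groups overlapped and all 4 control values exceeded the F median with TLS. The log2 difference was 0.47 ± 0.0874 in M (adjusted p = 0.000669) and -0.19 ± 0.0872 in F (adjusted p = 0.369), and M minus F was 0.66 ± 0.123 (adjusted p = 0.00443).

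Aqp4 had 88.8, 90.7, 105 and 109.9 CPM in the F controls and 67.4, 87.6, 91.5 and 96.1 CPM in F with TLS. In M it had 56.7, 61.3, 63.0 and 66.7 CPM in control and 65.8, 94.8, 106 and 114 CPM with TLS. The M controls were the lowest of the 4 sets, and 1 M animal with TLS fell among them. The log2 difference was 0.62 ± 0.157 in M (adjusted p = 0.00999) and -0.20 ± 0.155 in F (adjusted p = 0.666), with M minus F at 0.82 ± 0.221 (adjusted p = 0.0343). This call was lost without any 1 of TLS animals B51B, DDF3, E46E and 47BE or controls A123, 9BA4, D215, E329 and 5A66, with adjusted p of up to 0.0768.

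Slc1a2 had 1955, 2022, 2031 and 2223 CPM in the F controls and 1995, 2059.7, 2071 and 2587 CPM in F with TLS. The M controls had 1458, 1511, 1565 and 1726 CPM and the M animals with TLS 2199.5, 2411, 2415 and 2674 CPM. All F values of both groups and the M values with TLS lay above all 4 M controls. The log2 difference was 0.63 ± 0.0932 in M (adjusted p = 9.85e-05) and 0.08 ± 0.0928 in F (adjusted p = 0.798), and M minus F was 0.55 ± 0.131 (adjusted p = 0.0167).

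Glul had 1735, 1809.5, 1938 and 2059.7 CPM in the F controls and 1698, 1819.9, 1867 and 1956 CPM in F with TLS, so that the F groups lay over each other. In M it had 1595, 1678, 1722 and 1779.8 CPM in control and 2068, 2136, 2188 and 2356 CPM with TLS, without overlap. The log2 difference was 0.37 ± 0.0751 in M (adjusted p = 0.00139) and -0.04 ± 0.0750 in F (adjusted p = 0.897), and M minus F was 0.41 ± 0.106 (adjusted p = 0.0258), or an adjusted p of 0.0673 without control D215.

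The sexes could not be told apart in the TLS difference of the remaining 6 genes. Slc1a3 differed with TLS by 0.53 ± 0.0859 in M (adjusted p = 0.000202) and 0.21 ± 0.0856 in F (adjusted p = 0.293), with M minus F at 0.32 ± 0.121 (adjusted p = 0.109). Acsbg1 differed by 0.46 ± 0.0917 in M (adjusted p = 0.00123) and 0.24 ± 0.0914 in F (adjusted p = 0.238), with M minus F at 0.21 ± 0.129 (adjusted p = 0.339). In F, all 4 TLS values of Acsbg1, 198, 201, 219 and 226 CPM, lay above the 4 controls of 166, 167, 186 and 194 CPM. Gfap had 239.7, 249, 254 and 262 CPM in the M controls and 343, 360.4, 382 and 447 CPM in M with TLS, without overlap. In F it had 322, 357, 402 and 408 CPM in control and 237, 333, 481 and 482 CPM with TLS. The difference in M was 0.61 ± 0.270 (adjusted p = 0.132) when the spread of all 24 libraries was used, and 0.62 (adjusted p = 0.000379) in a fit of the M animals alone. S100b, Aldoc and Aldh1l1 had M minus F values of -0.14, 0.13 and 0.26, none of which passed.

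For the step from T0 to control, M minus F was below 0 for all 10 genes, but Slc1a3 alone passed the test of that difference, beside 3.26% of all genes. In the F libraries alone 7 of the 10 rose from T0 to control: S100b (0.66), Aldoc (0.58), Slc1a3 (0.57), Aqp4 (0.41), Glul (0.38), Acsbg1 (0.38) and Gja1 (0.32). Of all 16702 genes tested in F, 2965 passed, 1587 as higher and 1378 as lower. In the M libraries alone none of the 10 passed, and S100b had 0.31 (adjusted p = 0.0637). Of all 16699 genes tested in M, 1160 passed, 542 as higher and 618 as lower. From T0 to TLS the sexes could not be told apart: none of the 10 passed the test of the difference, and 0% of all genes did, with 3 of the 10 and 11.6% of all genes at an unadjusted p below 0.05. These tests share the control or the T0 libraries with those above.

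A measure of the RNA itself moved with the same groups. The share of counts from 3 RNAs that stay in the nucleus (Malat1, Neat1 and Meg3) ranged from 0.577% to 0.681% in the M controls and from 0.212% to 0.318% in M with TLS. In F it ranged from 0.214% to 0.417% in control and from 0.209% to 0.308% with TLS, and in T0 from 0.452% to 0.603% over both sexes. The M controls, which held the lowest values of Slc1a2 and Aqp4, and T0 were thus the sets with the high share. With this share as a covariate none of the 10 passed for TLS against control and none for the sex difference. With it, 2 passed for control against T0, S100b (log2 fold change 0.46) and Aldoc (0.30), and 1 for TLS against T0, S100b (0.49). Among all genes the covariate left 2 calls for TLS against control, 1 for the sex difference and 866 for TLS against T0. For control against T0 it left 3055 calls (18.4% of all genes) of 3527, while the members called went from 5 to 2. The part of nuclear RNA in these differences and that of TLS or sex cannot be told apart. Within groups and sexes, the correlation of a member with the share over the 24 centred libraries ran from -0.58 for Slc1a3 to 0.02 for S100b.

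The balance of long and short transcripts differed between libraries as well. A per-library index, the mean log2 level of 3952 genes with at least 6000 bases of exon minus that of 1017 genes with at most 2000, averaged 0.28 in F and 0.15 in M of T0, -0.09 and -0.16 in control and -0.17 and -0.01 with TLS. The 5 genes called for control against T0 were S100b, Aldoc, Glul, Gfap and Slc1a3. In that order, their exon lengths were 1484, 3263, 3323, 4218 and 8537 bases. Their within-group correlations with the index were -0.85, -0.82, -0.59, -0.35 and 0.09. Of the genes not called there, Slc1a2 (13133 bases) had 0.69, Aqp4 (6233 bases) 0.33 and Gja1 (10257 bases) 0.09. Aldh1l1 had -0.56 and Acsbg1 -0.36, with 4516 and 3604 bases. With the index as a covariate, an alternative chosen after the data were seen, none of the 10 passed for control against T0, and the calls over all genes went from 3527 to 77. The part of the index in that comparison and that of age or housing cannot be told apart. For TLS against control the same 3 genes passed with it, Slc1a2 at 0.32, Slc1a3 at 0.36 and Acsbg1 at 0.36, and the calls over all genes went from 899 to 1277 (7.69%). For TLS against T0 the same 8 genes passed (21.4% of all genes), and for the sex difference Slc1a2 (0.42), Gja1 (0.64) and Glul (0.49), beside 3.16% of all genes.

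Across animals the 10 genes did not move as 1 block. After each group and sex was centred on its mean, Aldoc, S100b, Glul, Acsbg1 and Aldh1l1 formed 10 pairs with Pearson correlations of 0.46 to 0.84 (median 0.61) over the 24 cortex libraries. Aqp4, Gja1, Slc1a2 and Slc1a3 formed 6 pairs with 0.29 to 0.73 (median 0.46). The 20 pairs between those sets had -0.42 to 0.41, with a median of 0.01. Gfap correlated with the other 9 by -0.22 to 0.44. These sets were drawn after the correlations were seen. All pairs share library, depth and RNA quality, and the second set holds the 4 members with the longest exon sequence.

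**Figure D3:**
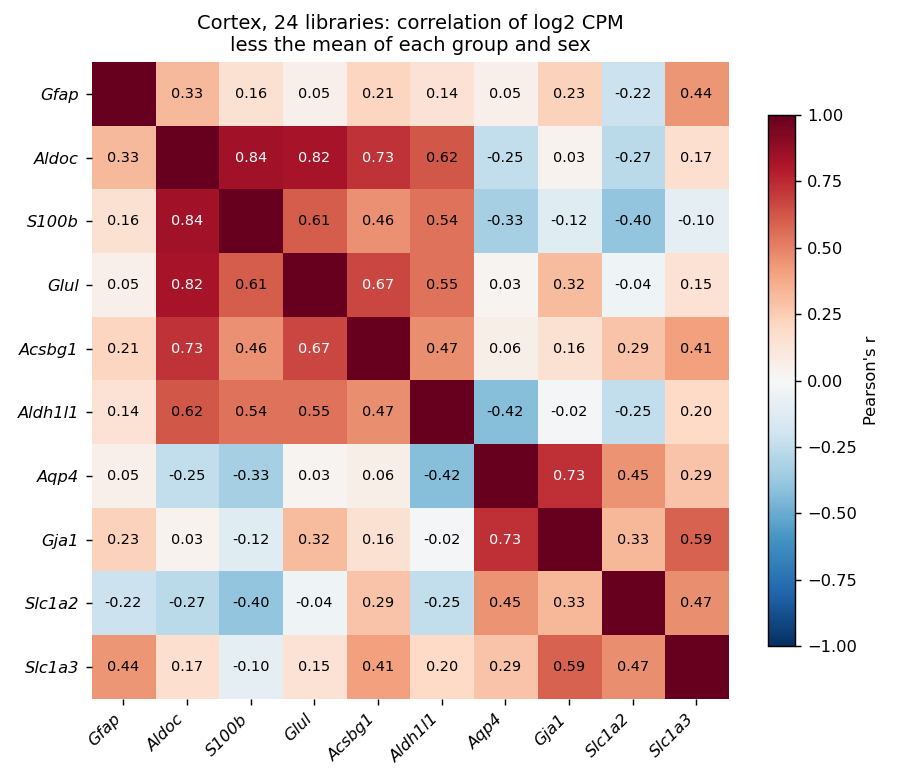
Pearson correlation between each pair of the 10 genes over the 24 cortex libraries, computed on log2 CPM centred within group and sex, with colour from negative to positive. Aldoc, S100b, Glul, Acsbg1 and Aldh1l1 form 1 block (0.46 to 0.84), Aqp4, Gja1, Slc1a2 and Slc1a3 another (0.29 to 0.73), and the median between them is 0.01.

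The genes whose level followed each member most closely were found by the same centred correlation among 10745 genes. Gfap was nearest to Kcng2 (0.92), Rasd1 (0.90) and C1ql2 (0.88). Aqp4 was nearest to Sash1 (0.91), Slc1a2 to Kat2b (0.83), Gja1 to Ctnnb1 (0.81), which encodes beta-catenin, and Slc1a3 to Plpp3 (0.80), a lipid phosphatase of astrocytes. S100b was nearest to Chchd2 (0.91) and Fis1 (0.90), which encode proteins of mitochondria. S100b also correlated by -0.85 with the index of long and short transcripts, whose part in these correlations was not tested. Aldoc was nearest to Gstm5 (0.91) and Ndrg2 (0.90), of which Ndrg2 is itself an astrocyte gene. For Glul the nearest were Tmem126a (0.83) and Selenop (0.82), for Acsbg1 Ak3 (0.82) and Rab5c (0.82), and for Aldh1l1 Ypel3 (0.82) and Grhpr (0.80).

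Other genes of the pathways of astrocytes were looked up in lists without the 10. The shares of all genes to set beside their counts are 10.8% higher for control against T0, 2.99% for TLS against control and 18.1% for TLS against T0, and 10.5%, 2.42% and 17.6% lower. In a list of 50 further astrocyte genes, 15 rose and 1 fell in control against T0 (median log2 fold change 0.22), 8 rose and 1 fell with TLS against control (0.14), and 28 rose and 1 fell with TLS against T0 (0.31). The TLS rises included Daam2 (0.40, adjusted p = 0.00193), the glutamate receptor Grm3 (0.43) and the coagulation factor receptor F3 (0.37). Of 14 genes of glutamate, GABA and glutamine handling beside Slc1a2, Slc1a3 and Glul, none passed for TLS against control. Of 15 genes of water, potassium and endfeet beside Aqp4, 3 rose with TLS, among them the potassium channel Kcnj10 (0.39) and the bicarbonate transporter Slc4a4 (0.29). Among 6 gap junction genes of glia beside Gja1, Gjb6 (0.32, adjusted p = 0.028) and Gjc3 (0.37, adjusted p = 0.028) rose with TLS. Gjb6 is the partner connexin of astrocytes and Gjc3 is a connexin of oligodendrocytes.

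The metabolic lists held 5 rises of 18 genes for glycolysis, glycogen and lipid supply beside Aldoc and Acsbg1, with the cholesterol exporter Abca1 at 0.53 and the acyl-CoA synthetases Acsl6 at 0.33 and Acsl3 at 0.28. Of 12 genes of folate and serine metabolism beside Aldh1l1, 3 rose with TLS: Mthfd2 (0.37), Gldc (0.35) and Psat1 (0.28). Neither list had a fall for TLS against control. Beside Gfap, 1 of 10 intermediate filament genes passed, Lmna of the nuclear lamina, which fell (-0.30). Vim, the other filament of reactive astrocytes, had 0.46 (adjusted p = 0.124) and Serpina3n, a protease inhibitor of that state, 0.59 (adjusted p = 0.142). Of 3 lists of reactive astrocyte genes, that of genes shared by reactive states had 2 rises of 9, Osmr (0.90) and Ctnna2 (0.19), and that of the ischaemic kind 1 of 11, Cd14 (0.97). The list of the inflammatory kind had 7 rises of 13, including Iigp1 (1.92), C4b (1.07), H2-D1 (1.03) and H2-T23 (0.66). Iigp1 is an interferon-induced GTPase, C4b is complement, and H2-D1 and H2-T23 are histocompatibility genes, all of which other cells of brain also express.

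Markers of other cells changed in the same libraries. With TLS against control 7 of 10 microglia markers and 4 of 10 oligodendrocyte markers rose, and with TLS against T0 10 and 8. Summed microglia markers ran from 344 to 410.4 CPM in T0, 390.1 to 508 in control and 488 to 758 with TLS, and summed oligodendrocyte markers from 3745 to 4701, 4235 to 6231 and 4989.6 to 9402 CPM. None of 10 markers of excitatory neurons passed for TLS against control, while 3 fell in control against T0, and 4 fell and 1 rose with TLS against T0. Of 10 markers of inhibitory neurons 2 rose with TLS against control (Npy and Vip), 1 fell in control against T0 and none passed for TLS against T0. Choroid plexus markers summed to 12.8 to 636 CPM in T0, 130 to 1236 in control and 22.5 to 1005 with TLS. Striatum markers summed to 216 to 1294 CPM in the F controls and 852 to 2196 CPM in F with TLS, in M from 894 to 1252 and from 597 to 850.1. The part of these other cells in the levels of the 10 genes was not tested.

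Outside the brain none of the 10 genes passed any comparison between the treatment groups. In kidney, where 8 of the 10 were tested, 0.231% of all genes passed for TLS against control, 0.312% for control against T0 and 0.681% for TLS against T0. In liver, where 6 were tested, the shares were 1.95%, 0.529% and 1.34%, and in WAT, with 8 tested, 0.00596%, 0.161% and 0.226%. At an unadjusted p below 0.05 for TLS against control there were 2 of 8 in kidney, where 8.45% of all genes were below it, 2 of 6 in liver (17.5%) and 3 of 8 in WAT (11.1%). The tissue difference was taken as the TLS difference in cortex minus its mean over kidney, liver and WAT. None of the 10 passed a test of it, and 0.0191% of all genes did. Opposite changes outside cortex can cancel in that mean. Taken tissue by tissue with animal name as a replicate block, S100b passed for cortex minus WAT (2.02, adjusted p = 0.0475). Over all 20888 genes 7 were higher and 12 lower there. S100b was not called for TLS against control in cortex itself. The calls in cortex are therefore not shown to be particular to cortex. For TLS against control, known changes were simulated in genes of at least 50 CPM. Of 1.3-fold changes 91% were recovered in cortex, 14% in kidney, 6% in WAT and 1% in liver. Of 2-fold changes 100% were recovered in cortex, 95% in kidney, 81% in WAT and 58% in liver. Several members lie below 50 CPM outside cortex, and these rates do not apply to them.

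Some of the larger differences outside cortex were as follows. In kidney, where Aqp4 sits in the collecting duct, it had 47.8, 56.3, 67.0 and 82.3 CPM in the F controls against 24.9, 26.5, 29.5 and 44.9 CPM in F with TLS. The M controls had 10.8, 20.8, 21.5 and 26.8 CPM and the M animals with TLS 5.53, 9.84, 15.2 and 15.3 CPM. All 8 TLS animals lay below the control mean of their sex, at a log2 fold change of -0.92 ± 0.267 (adjusted p = 0.217), while control against T0 gave 0.88 ± 0.269 (adjusted p = 0.177). In WAT, S100b had 9.31, 11.7, 12.4 and 13.4 CPM in the F controls and 4.33, 8.84 and 10.8 CPM in the M controls. With TLS it had 1.53, 2.51, 5.92 and 7.88 CPM in F and 0.312, 1.84, 2.35 and 3.05 CPM in M. No TLS value of S100b reached a control of its own sex, at -1.70 ± 0.413 (adjusted p = 0.201). DESeq2 gave -1.71 with an adjusted p of 0.00893, so the call depends on the tool. Liver Aldh1l1 had -0.64 ± 0.289 (adjusted p = 0.242) with no TLS animal above the control mean of its sex, and WAT Glul had 0.75 ± 0.263 (adjusted p = 0.298).

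Some members differed between M and F over all 3 groups outside the brain. In kidney 6 of the 8 tested members differed between M and F, where 46.8% of all genes did. The sex letters of T0 animals 4 and 5 differ between kidney and the other tissues, and their kidney libraries fitted the kidney letters. Aqp4 was lower in M by a log2 difference of -1.37 ± 0.221 (adjusted p = 2.15e-05), and Slc1a3 (-0.83), Gja1 (-0.73), Aldoc (-0.62) and Glul (-0.50) were lower too, while Aldh1l1 was higher (0.72 ± 0.166, adjusted p = 0.00101). In liver, where 6.4% of all genes differed, Aqp4 was the 1 member of 6, higher in M by 1.95 ± 0.379 (adjusted p = 0.00099). In WAT, where 11.8% of all genes differed, Acsbg1 was higher in M (3.67 ± 0.623, adjusted p = 0.000323) and Slc1a2 lower (-2.26 ± 0.431, adjusted p = 0.000995). The Acsbg1 difference came from some animals: the 12 F libraries lay between 0.506 and 1.39 CPM and the 11 M libraries between 0.969 and 38.6. In cortex none of the 10 differed between M and F, where 0.126% of all genes did.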

How the data were processed

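The authors deposited 1 table of raw counts, by gene, for 95 libraries. Per the submitters' processing notes, STAR 2.7.10 and the builds mm10 and GRCm38 were used, and DESeq and DESeq2 are named without a role. The file's first line carries the word "corrected". The sources used here give neither its meaning nor the strand and annotation used for counting. The labels give the F or M letter under a tag for cell line.

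In each tissue, edgeR 4.0.16 (R 4.3.3) fitted robust quasi-likelihood models to the 3 groups with sex as a covariate, after filterByExpr (minimum count 10) and TMM scaling. A gene passed when its p, adjusted by Benjamini-Hochberg over all genes of the fit, was below 0.05. The SE is the size of the log2 fold change divided by the square root of F, and p-values measure the spread between animals. CPM uses the scaled library size, and log2 CPM adds a prior count of 2. Sex crossed with treatment gave the sex differences. A joint fit gave the tissue difference and was refitted with animal as a replicate block, taken from the animal names in the titles. The names do not pair all T0 tissues, since T0 animals 4 and 5 have another sex in kidney than elsewhere. Libraries that share a name had a mean correlation of deviations of 0.0407 (135 pairs), against -0.0122 under different names (429 pairs). So small a difference does not settle whether a name stands for 1 animal in every tissue. The method was tested on simulated data.

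The members and lists were chosen with earlier results of these data known, so nothing in them is independent of these data. All 10 members are named, from each list up to 4 genes with the smallest p for TLS against control in cortex, and for each member up to 3 genes with the highest centred correlation. A gene that this rule names is not reported here. Alternatives were DESeq2 1.42.0, RLE size factors, other filters, another prior count of 0.5, fewer groups, no sex covariate, 1 sex alone, 2 RNA covariates and each library left out in turn. The M against F comparison over all groups and the sex differences against T0 were added after the design was set. Promoter sequences come from the RefSeq table for GRCm38.p6.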

Additional observations from a re-analysis of the deposited data

Results flagged for a closer look

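In 89 groups of libraries with a mean of at least 1 CPM, single libraries were sought that stood apart from the rest of their group, and chance alone flags about 1 in 20 groups. The Gfap level of T0 animal 1 in cortex was 78.1 CPM, with the next library at 161. Aldh1l1 in cortex was 108 CPM in TLS animal A5DA, with the next at 84.9. Acsbg1 in WAT was 15.7 CPM in control A367 against 1.13 in the next library, and 34.8 CPM in T0 animal 6 against 2.21. Aldoc in WAT was also high in T0 animal 6, at 49.9 CPM against 1.84. S100b in WAT was low in control E329, at 4.33 CPM against 8.84. Gja1 in liver was 0.266 CPM in TLS animal B51B against 1.48, Glul in kidney 467 CPM in TLS animal A5DA against 728, and Slc1a2 in kidney 5.95 CPM in TLS animal 47BE against 3.14.

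In cortex 5 results differed between M and F by a test of the difference. For TLS against control the log2 difference, M minus F, was 0.82 for Aqp4, 0.66 for Gja1, 0.55 for Slc1a2 and 0.41 for Glul. For control against T0 it was -0.60 for Slc1a3.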

How the results depend on the processing

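Over the members, 260 recomputed values kept their direction and their side of the threshold, 37 lost and 5 gained a call, and 4 reversed. The reversed ones were Glul for TLS against control in F alone (-0.047), Slc1a3 for control against T0 in M alone (-0.063), and, after adjusting for the share of nuclear RNA, Gja1 for TLS against T0 (-0.055) and Slc1a3 in the sex difference (-0.084). The members called for TLS against control in cortex (3) became 0 with the nuclear share, 0 in F alone and 7 in M alone, and ranged from 3 to 4 with 1 library left out. For control against T0 (5) they became 3 without the low-count filter, 3 with only the 2 groups, 2 with the nuclear share, 0 in M alone and 0 with the length index, and ranged from 3 to 5. For TLS against T0 (8) they became 1 with the nuclear share and ranged from 8 to 9. For the sex difference (4) they became 0 with the nuclear share and ranged from 2 to 5. The sex difference of control against T0 (1) became 2 without the filter. In kidney, control against T0 (0) ranged from 0 to 1, with Aqp4 called without T0 animal 7. In WAT, TLS against control (0) became 1 with DESeq2 (S100b), TLS against T0 (0) ranged from 0 to 1, and M against F (2) became 4 with DESeq2 and ranged from 2 to 4. The causes were not tested.

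Calls over all genes moved more. In cortex TLS against control (899) had 1368 with DESeq2, 2 with the nuclear share, 2 in F alone and 3404 in M alone. Control against T0 (3527) had 1160 in M alone and 77 with the length index. TLS against T0 (5934) had 866 with the nuclear share, 2971 in M alone and 3549 with the index. M against F (21) had 71 with DESeq2, and the sex difference (844) had 1331 with DESeq2, 525 with the index and 1 with the nuclear share. With no sex covariate and with DESeq2, kidney had 7 and 101 for TLS against control (37), 12 and 107 higher plus 108 lower for control against T0 (50) and 20 and 408 for TLS against T0 (109). Liver likewise had 154 and 620 (265), 39 and 247 (72) and 89 and 457 (182). In WAT, TLS against control (1) had 0 without the sex covariate and 176 with DESeq2. Without the filter and with DESeq2, control against T0 (27) had 11 and 210, and TLS against T0 (38) had 8 and 373. The sex difference of TLS against T0 (0, with 1933 genes at an unadjusted p below 0.05) had 14 without the filter.

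With the animal name as a replicate block, the tissue difference had 4 calls over all genes and 0 members, as without it. The block fit also set the TLS difference of cortex against that of each other tissue, over 20888 genes. For cortex minus WAT, S100b was the member that passed (2.02, adjusted p = 0.0475), beside 7 higher and 12 lower genes. No member passed for cortex minus liver, beside 270 higher and 222 lower genes. For cortex minus kidney no gene passed. Beyond these, no comparison was fitted with the block. Groups of 8, or 4 by sex, limit all tests, and counts near 0 in kidney, liver and WAT leave several members untested there.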
